A study of Mus musculus with 120 samples.

Results

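The neuropeptide genes Gal, Cck, Calca and Adcyap1 were 4 of the 16538 genes counted in 120 libraries of mouse thalamic projection neurons. They were picked by gene symbol after their levels across nuclei had been seen, and Gal also after its difference between nuclei labelled from the striatum and from the cortex had been seen. Their levels across nuclei are therefore given as a description with no test, and tests are given only for tracer, for sex and for the genes that act with them.

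Each library held the pooled RNA of 14 to 200 fluorescent neurons (median 60.5) picked by hand from microdissected thalamus after a tracer had been placed in a projection target. The 22 nuclei made 24 groups, since CM and AM were labelled in 2 ways. From the striatum, rAAV2retro, a virus that axon terminals take up and carry back to the cell body, labelled the paraventricular (PVT, 3 libraries), parafascicular (PF, 4), central medial (CM, 4), paracentral (PCN, 4), intermediodorsal (IMD, 4) and central lateral (CL, 4) nuclei and the subparafascicular area (SPA, 4). DiI, a dye that spreads along membranes, labelled 3 further CM libraries from the striatum. The cortical groups were labelled with DiI: from retrosplenial cortex the laterodorsal (LD, 5), anterodorsal (AD, 4) and anteroventral (AV, 8) nuclei; from cingulate cortex the reuniens (RE, 8), anteromedial (AM, 4) and interanterodorsal (IAD, 3) nuclei; from primary motor cortex the ventral medial (VM, 6), ventral anterior (VA, 8) and ventral lateral (VL, 6) nuclei. The other DiI groups were the posterior (PO, 7) and ventrobasal (VB, 4) nuclei from somatosensory cortex, the dorsal lateral geniculate (LGd, 5) and lateral posterior (LP, 9) nuclei from visual cortex, the mediodorsal nucleus (MD, 6) from orbital cortex and the parvicellular ventral posteromedial nucleus (VPMpc, 6) from insular cortex. A single AM library was labelled from cingulate cortex with rAAV2retro. In the motor groups axons were also labelled by virus from sites recorded as SNr and DCN, and in the visual groups by CTB in the eyes. Recorded animals numbered 85, and several nuclei were often taken from the same animal. Recorded ages ran from 55 to 447 in a unit that the table does not name, with no age for 3 libraries. The recorded genotype was wildtype in 119 libraries, and 1 VA library had another. There were 47 female libraries, 72 male libraries and 1 of mixed sex, and 13 libraries pooled animals. PVT, IMD, CL, PF, SPA and AM held only females, and AD, AV, LD, MD, VB, PO, LP, LGd and the DiI-labelled CM group only males.

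Neuropeptides are made as longer precursors that enter the secretory pathway, are cut at pairs of basic residues inside dense-core vesicles, trimmed, and often amidated at the end where a glycine is left. They are released together with the fast transmitter, which in these relay neurons is glutamate, and act on G protein-coupled receptors over a longer range and time. Gal codes for galanin, which acts mostly through inhibitory receptors. Cck codes for cholecystokinin, a peptide widely made by forebrain excitatory neurons. Calca codes for calcitonin or, through a different choice of last exons, for CGRP, the calcitonin gene-related peptide that neurons release. Adcyap1 codes for PACAP, which raises cyclic AMP through the PAC1 receptor. In thalamus CGRP is best known from posterior intralaminar and parvicellular cell groups.

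The stretch that ends each mature peptide is what the 4 genes share in sequence, so it is shown for each peptide. The coding sequences of GENCODE M21 on GRCm38/mm10 were searched in frame for a glycine codon (GGN) followed by 2 codons for lysine or arginine, the signal for cutting and amidation. The lower-case letters are the last 8 codons of the mature peptide, and the capitals are the glycine codon and the basic pair.
Galanin, Gal, chr19:3411592-3411624, minus strand: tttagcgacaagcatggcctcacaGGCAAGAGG
Cholecystokinin, Cck, chr9:121490098-121490130, minus strand: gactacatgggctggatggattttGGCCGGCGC
CGRP, Calca, chr7:114632461-114632493, minus strand: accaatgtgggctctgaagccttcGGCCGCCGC
Calcitonin, Calca, chr7:114633656-114633688, minus strand: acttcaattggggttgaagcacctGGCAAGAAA
The shorter PACAP, Adcyap1, chr17:93204047-93204079, plus strand: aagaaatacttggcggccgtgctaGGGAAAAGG
The longer PACAP, Adcyap1, chr17:93204080-93204112, plus strand: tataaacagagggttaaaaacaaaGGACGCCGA
Each stretch lay within 1 coding exon. Calca carried its 2 signals in different exons, used by different transcripts, whereas Adcyap1 carried both in the same exon, with the second stretch starting at the base after the first. A match was common: 7563 of 21510 protein-coding genes (35.2%) held this pattern, and 572 of the 3336 genes with at most 200 codons (17.2%). Counts were per gene, so a Calca value does not say which of calcitonin and CGRP was made. The genes lie at chr19:3409915-3414544 (Gal, minus strand, 788 exonic bases), chr9:121489824-121495694 (Cck, minus, 1305), chr7:114631478-114636357 (Calca, minus, 1684) and chr17:93199017-93206537 (Adcyap1, plus, 3777), and no other annotated gene overlaps them. The table gives their identifiers as ENSMUSG00000024907.6, ENSMUSG00000032532.7, ENSMUSG00000030669.13 and ENSMUSG00000024256.6.

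Levels are in CPM, a gene's count relative to the total of its library, with the totals scaled between libraries by TMM, the trimmed mean of M-values. Library totals ran from 8159497 to 26444831 counts, and where a group had no read of a gene, the level that 3 counts over its summed libraries would give is stated as the upper limit for counting error alone. All 8 thalamic neuron markers on the list were measured, and their summed level was 3179 to 13634 CPM per library. Of the markers of other cells, 7 of 10 oligodendrocyte, 2 of 8 microglia and 2 of 7 inhibitory neuron genes were measured, and astrocyte, medial habenula and hypothalamic lists were not analysed here. The oligodendrocyte sum was 11.0 to 60.0 CPM in the striatum-labelled libraries and 0.257 to 3856 in the cortex-labelled ones, and the inhibitory sum 0 to 8.71 and 0 to 347. The part of these differences in the levels that follow was not tested. In bulk samples such as these, fewer cells of a type and less RNA per cell cannot be told apart.

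The 4 genes were made at very different levels. Per kilobase of exon, the highest group mean was 747 CPM for Cck (AM), 62.8 for Gal (CM labelled with DiI), 54.8 for Calca (AM) and 22.9 for Adcyap1 (PF). Cck had reads in all 120 libraries, Adcyap1 in 104, Calca in 80 and Gal in 63. Cck averaged at least 10 CPM in 22 of 22 nuclei, Adcyap1 in 10, Calca in 7 and Gal in 5. Cck was thus a gene of every group, and the other three were each high in a few groups and at or near 0 in others. Neighbours in the order of the nuclei were rarely apart: the ranges of neighbouring nuclei overlapped in 21 of 21 pairs for Gal, Calca and Adcyap1 and in 20 of 21 for Cck, so the order is a rough one.

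**Figure D1:**
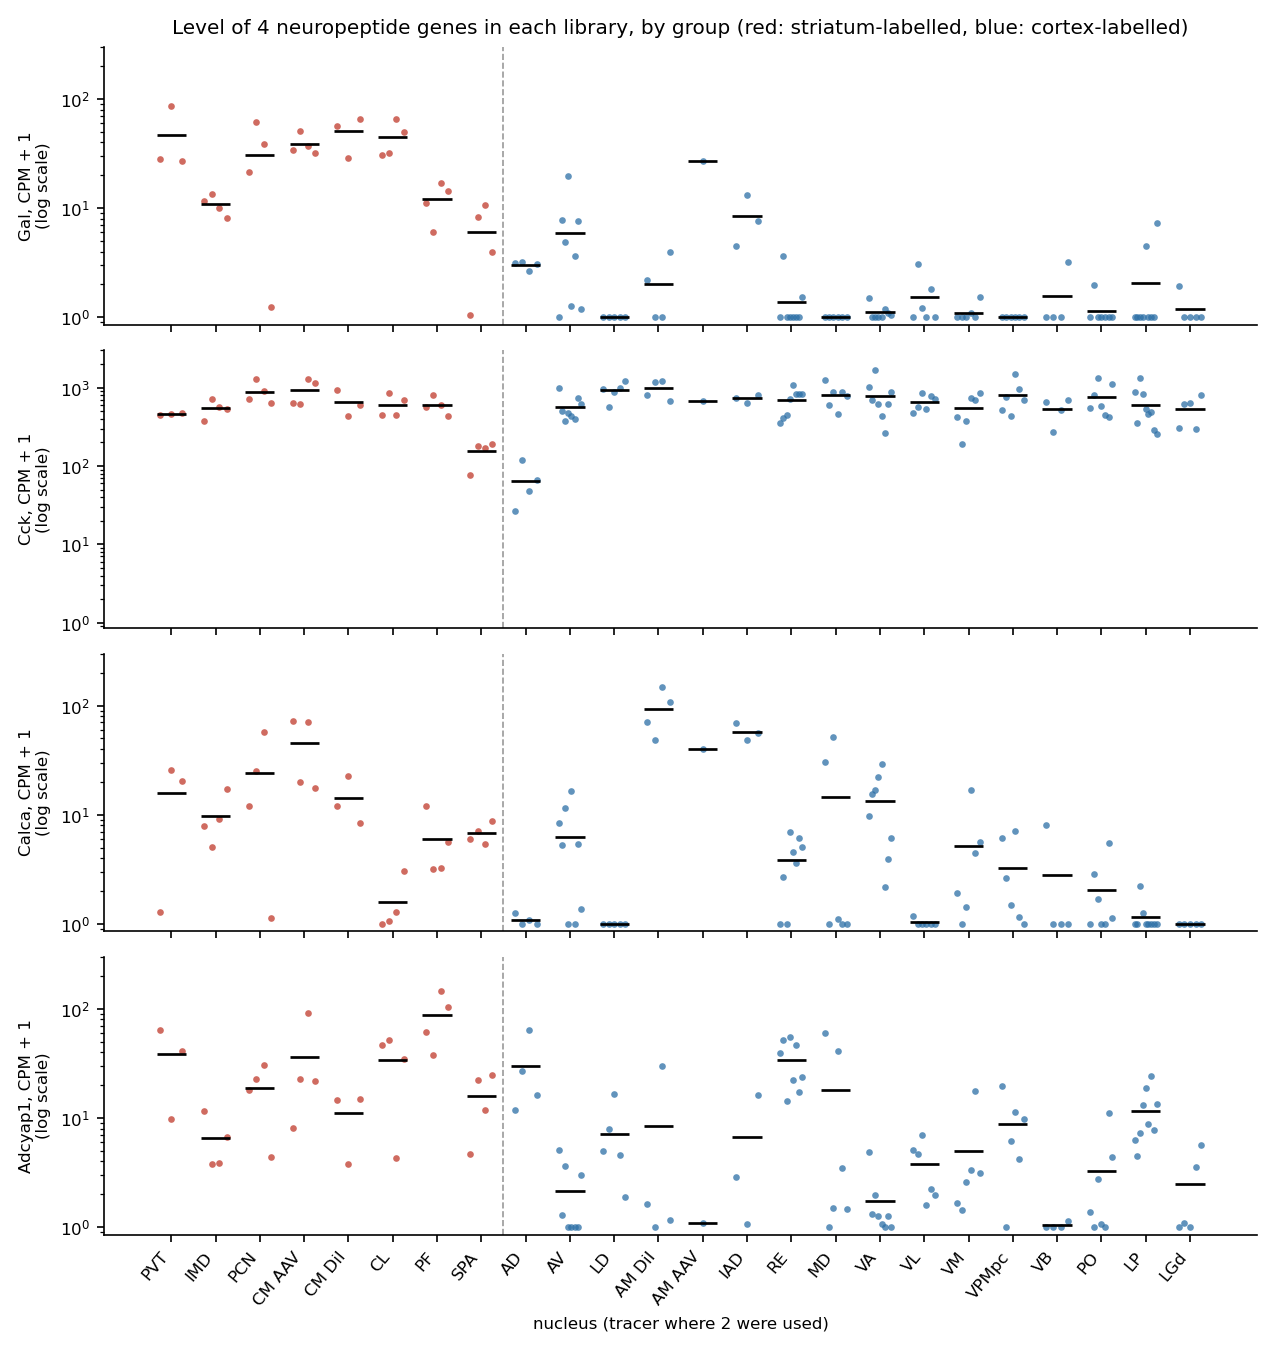
Level of each gene in every library on a log axis of CPM + 1, by group, with striatum-labelled groups in red on the left and cortex-labelled groups in blue on the right; points are libraries and bars are group means. Gal sat high in the red groups and at or near 0 in most blue ones, Cck was high in all but SPA and AD, and Calca and Adcyap1 varied within groups.

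Gal was led by the midline and intralaminar nuclei labelled from the striatum. In CL its 4 libraries had 29.4, 31.1, 64.9 and 48.5 CPM (43.5 ± 16.7, SD). In CM labelled with rAAV2retro they had 33.2, 50.5, 35.8 and 30.7 CPM (37.6 ± 8.86, n = 4), and in CM labelled with DiI 55.6, 27.8 and 65.0 (49.5 ± 19.3, n = 3). Every library of these 3 groups had at least 27.8 CPM, and their ranges overlapped. The 3 PVT libraries had 27.2, 85.2 and 26.0 CPM (46.2 ± 33.8), and without the library at 85.2 the PVT mean was 26.6. PCN had 20.6, 60.2, 37.8 and 0.245 CPM (29.7 ± 25.5, n = 4). The low PCN library held 22 cells, against 78 to 82 in the others, and its CM counterpart from the same animal had 30.7 CPM. Without the PCN library at 60.2 that mean was 19.6.

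The remaining striatum-labelled nuclei held less galanin message. PF had 10.2, 5.07, 15.9 and 13.4 CPM (11.2 ± 4.69, n = 4), IMD 10.7, 12.5, 9.05 and 7.15 (9.84 ± 2.27, n = 4), and SPA 0.0506, 7.30, 9.60 and 2.96 (4.98 ± 4.29, n = 4). All 30 striatum-labelled libraries had a Gal read, and 22 of them reached 10 CPM. Among the 90 cortex-labelled libraries 33 had a read, 20 reached 1 CPM and 3 reached 10. Gal was thus found in every striatum-labelled library and in a minority of the others.

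Within the cortex-labelled groups Gal was not evenly low. IAD, a midline nucleus labelled from cingulate cortex, had 3.51, 12.2 and 6.64 CPM (7.45 ± 4.41, n = 3), within the range of IMD and SPA. AV ranged from 0 to 18.5 CPM over 8 libraries (4.88 ± 6.17), and without its highest library the mean was 2.94. AD was steady at 2.16, 2.23, 1.65 and 2.07 CPM (2.03 ± 0.258, n = 4). The AM libraries labelled with DiI had 1.18, 0, 0 and 2.94 CPM (1.03 ± 1.39), whereas the AM library labelled with rAAV2retro had 26.2 CPM. That difference between tracers in AM rests on 1 library and has no replicate check. No library of LD (5), MD (6) or VPMpc (6) had a Gal read, which allows up to 0.0551, 0.0572 and 0.0403 CPM, and RE, VA, VL, VM, VB, PO and LGd each averaged under 1 CPM. Single libraries of these 7 groups held at most 42 Gal reads (1 RE and 1 VL library).

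Libraries of both classes were amplified on 2 dates. On the earlier of them, Gal was 7.15 to 85.2 CPM in 7 PVT and IMD libraries and 0 to 2.09 in 5 VA and VL libraries. On the later, Gal was 27.8 to 65.0 CPM in the 3 CM libraries labelled with DiI and 0 to 0.802 in 11 VA, VL and VM libraries. On the later date both classes had been labelled with DiI, and CM was the only striatum-labelled nucleus. Gal had been picked with its difference between the classes seen, so these values are a description. The part of date and tracer in the Gal levels was not tested in any group.

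Cck was high almost everywhere, with 2 exceptions. The highest means were in AM labelled with DiI, where the libraries had 804, 1193, 1224 and 677 CPM (975 ± 275, n = 4), and in LD, with 972, 561, 884, 991 and 1226 (927 ± 240, n = 5). CM labelled with rAAV2retro followed at 923 ± 344 CPM (n = 4) and PCN at 890 ± 288 (n = 4). These 4 means differed by less than their SDs. PVT was the most even group, with 451, 462 and 472 CPM (462 ± 10.3, n = 3).

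AD had the lowest Cck, with 25.4, 117, 47.0 and 64.3 CPM (63.4 ± 39.2, n = 4). SPA had the next lowest, with 75.5, 176, 166 and 192 CPM (153 ± 52.6, n = 4). The lowest Cck value outside these 2 groups was 189 CPM, in VM, above all 4 AD libraries and 3 of the 4 SPA libraries. AD and AV are neighbouring anterior nuclei labelled from the same cortex, and AV ranged from 373 to 978 CPM over 8 libraries (564 ± 206). In the 3 animals that gave both, Cck was lower in AD than in AV in all 3. PF, the group most like SPA in position and target, had 560, 810, 602 and 440 CPM (603 ± 154, n = 4), and PF was above SPA in both animals that gave both. SPA and PF were amplified on different dates, so nucleus and date cannot be told apart between them.

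Calca had its highest level in AM. The 4 AM libraries labelled with DiI had 69.2, 47.0, 146 and 107 CPM (92.2 ± 43.4), and the AM library labelled with rAAV2retro had 39.1. IAD, labelled from the same cortex, was the most even of the high groups, with 68.0, 46.9 and 55.6 CPM (56.8 ± 10.6, n = 3). RE, the third cingulate group, was low: its 8 libraries ran from 0 to 5.94 CPM (2.87 ± 2.21). The lowest AM library was thus above the highest RE library by a wide margin, and AM and IAD overlapped.

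**Figure D2:**
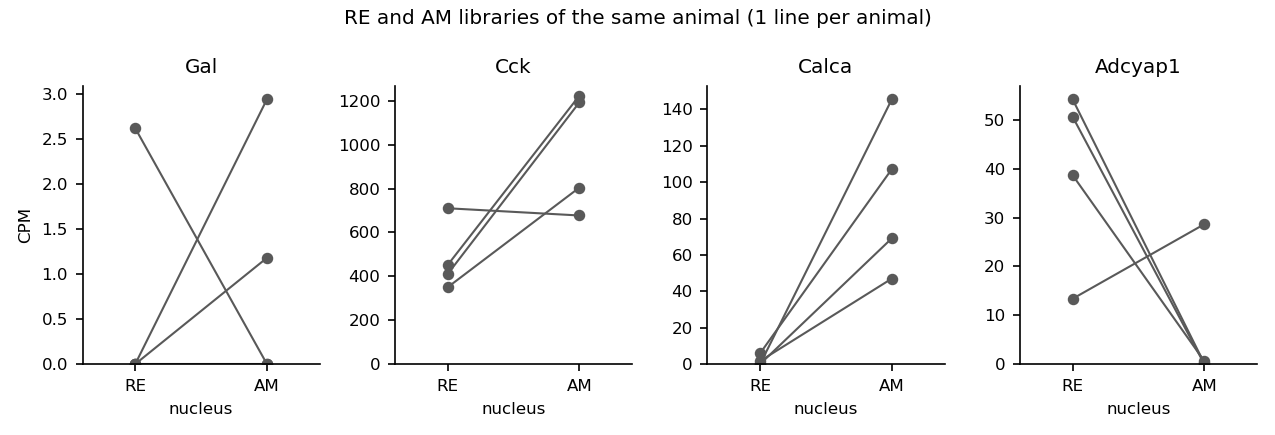
Level in CPM of the 4 genes in the RE and AM libraries of the same 4 animals, 1 line per animal, on linear axes that start at 0. Calca was higher in AM in 4 of 4 animals, Adcyap1 was higher in RE in 3 of 4, and Cck was higher in AM in 3 of 4.

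In the 4 animals that gave an RE and an AM library on the same amplification date, the 2 peptides went opposite ways. Calca in RE was 0, 1.68, 0 and 5.94 CPM beside 69.2, 47.0, 146 and 107 in AM of the same animals. Adcyap1 in RE was 38.7, 50.7, 13.4 and 54.3 CPM beside 0.613, 0, 28.7 and 0.149 in AM. The exception was the animal of replicate 3, in which Adcyap1 was higher in AM. That AM library held 30 cells, against 74 to 103 in the others, and its oligodendrocyte sum of 15.6 CPM was below their 25.8 to 29.7. Without it the AM mean for Adcyap1 fell from 7.35 to 0.254 CPM. The inhibitory neuron sum was 52.0 to 138.9 CPM in RE and 0.149 to 5.64 in the DiI-labelled AM libraries, and the thalamic neuron sum 3179 to 4124 and 5247 to 7633. The part of these in the differences between RE and AM was not tested.

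Among striatum-labelled nuclei Calca was led by CM and PCN, with large gaps between libraries. CM labelled with rAAV2retro had 70.9, 18.8, 70.3 and 16.5 CPM (44.1 ± 30.6, n = 4). PCN of the same 4 animals had 11.0, 24.4, 56.6 and 0.123 CPM (23.0 ± 24.5), and without its highest library 11.8. PVT had 0.291, 24.6 and 19.3 CPM (14.7 ± 12.8, n = 3), and without its highest library 9.80. CL, which was among the highest for Gal, had only 0, 0.0551, 0.273 and 2.05 CPM of Calca (0.595 ± 0.979, n = 4). CL was thus high for Gal and low for Calca. SPA was low and even, with 5.01, 6.14, 4.44 and 7.67 CPM (5.81 ± 1.42, n = 4). IMD averaged 8.79 ± 5.19 CPM (n = 4) and PF 5.03 ± 4.17 (n = 4), with the PF mean at 3.02 without its highest library.

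Calca was at or near 0 in several cortex-labelled nuclei. No library of LD (5) or LGd (5) had a read, which allows up to 0.0551 and 0.0486 CPM, and in AD, VL and LP the group mean was under 0.2 CPM. Of the other motor nuclei, VM had 4.20 ± 5.96 CPM (n = 6), or 1.88 without its highest library, and VA 1.18 to 28.3 over 8 libraries (median 11.6, mean 12.2 ± 9.46). In VA the level also followed the amplification date, with 13.0 ± 3.72 CPM (n = 3), 3.09 ± 1.99 (n = 3) and 24.7 ± 5.04 (n = 2) on 3 dates. VPMpc, a cell group in which CGRP has been described, had only 0 to 6.03 CPM (2.23 ± 2.65, n = 6), and without its highest library 1.47.

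MD was split for 2 of the peptides. Calca in its 6 libraries was 29.5, 0, 51.1, 0.117, 0 and 0 CPM (13.5 ± 21.9). Adcyap1 was 58.9, 0, 0.495, 40.4, 2.5 and 0.456 CPM (17.1 ± 25.9) in the same order. Replicate 1 was high for both, replicate 3 for Calca alone and replicate 4 for Adcyap1 alone. Replicate 1 also had an inhibitory neuron sum of 55.0 CPM and an oligodendrocyte sum of 72.1, against at most 0.911 and 24.5 in the other 5. Replicates 3 and 4 had inhibitory sums of 0 and 0.235 CPM and oligodendrocyte sums of 13.7 and 6.34. The microglia sum was 5.61 in replicate 1, 1.48 in replicate 3 and 0 in the rest, and the part of these cells in the MD values was not tested. Without replicate 3 the MD mean for Calca was 5.93 CPM, and without replicate 1 that for Adcyap1 was 8.77.

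Adcyap1 was highest in PF. Its 4 libraries had 60.5, 36.8, 146 and 102 CPM (86.4 ± 48.0). SPA had 3.69, 21.1, 10.9 and 23.8 CPM (14.9 ± 9.29, n = 4), all below the lowest PF library, and PF was above SPA in both animals that gave both. As for Cck, nucleus and amplification date cannot be told apart between SPA and PF. CL had 45.2, 51.2, 3.27 and 33.6 CPM (33.3 ± 21.3, n = 4). PVT had 63.4, 8.69 and 40.2 CPM (37.4 ± 27.4, n = 3), and without its highest library 24.4. CM labelled with rAAV2retro had 7.16, 21.6, 91.4 and 20.8 CPM (35.2 ± 38.0, n = 4), and without replicate 3 its mean was 16.5. Every striatum-labelled library had at least 2.75 CPM of Adcyap1.

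Some cortex-labelled nuclei made as much Adcyap1 as the striatum-labelled ones. RE ran from 13.4 to 54.3 CPM over 8 libraries (median 30.7, mean 32.9 ± 16.3), and no RE library was low. Its 2 amplification dates gave 39.3 ± 18.5 (n = 4) and 26.5 ± 13.1 (n = 4). AD had 10.8, 26.0, 63.1 and 15.2 CPM (28.8 ± 23.8, n = 4), and 17.3 without its highest library. AV, its neighbour, ran from 0 to 4.09 CPM (1.13 ± 1.59, n = 8), below every AD library, and AD was above AV in 3 of 3 animals that gave both. LP was moderate in every library, at 3.49 to 23.3 CPM (10.5 ± 6.51, n = 9). VB was the lowest nucleus, with reads in 1 of 4 libraries (0.133 CPM). Within the anterior nuclei, AD and AV thus went opposite ways for Cck and Adcyap1.

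The pattern of each gene over the 22 nuclei was set beside that of the others as Pearson's r of log2(CPM + 1) means, a description over nuclei that share dates and animals. The value was 0.62 for Gal with Adcyap1, 0.42 for Gal with Calca and 0.30 for Cck with Calca. It was -0.02 for Gal with Cck, 0.06 for Calca with Adcyap1 and -0.24 for Cck with Adcyap1. So Gal and Adcyap1 were the pair most alike, with PVT, CM and CL high for both.

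By the same measure, the genes most like Gal were Cited4, a transcriptional co-regulator (r = 0.89), Ufsp1, a peptidase for the modifier UFM1, Ror1, a Wnt-binding receptor, Mcub, a subunit of the mitochondrial calcium uniporter, and Sema5b, a semaphorin (0.87). All 5 had their highest mean in PVT. The genes most like Cck were Rgs16, a regulator of G protein signalling (r = 0.83), Rims3, a presynaptic active-zone protein, Usp22, a deubiquitinase, Stum and Tmem132b (0.78). Those most like Calca were Aldh3b2, an aldehyde dehydrogenase (r = 0.81), Spp1, which codes for osteopontin, Ncald, a neuronal calcium sensor, Rcn1, a calcium-binding protein of the endoplasmic reticulum, and Itpripl2 (0.76). Those most like Adcyap1 were Alcam, a cell adhesion molecule (r = 0.82), Lypd1, a modulator of nicotinic receptors, Plcxd2, Adgre5, an adhesion receptor, and Gucy1a3, a subunit of the soluble guanylate cyclase (0.80). These names depend on the measure: ranking by Spearman's rho kept 0 of the 5 for Gal, 0 for Cck, 1 for Calca and 3 for Adcyap1. The rho of the 5 genes named for Cck was only 0.14 to 0.52, against 0.68 to 0.88 for those named for the other members.

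The tracer was compared within CM, where rAAV2retro (4 libraries) and DiI (3) had been placed in the striatum. This contrast played no part in choosing the genes. The 2 tracer groups were also made on 2 dates, and the DiI libraries were all male, so tracer and date cannot be told apart. Calca was 70.9, 18.8, 70.3 and 16.5 CPM with rAAV2retro and 11.0, 21.5 and 7.45 with DiI. Adcyap1 was 7.16, 21.6, 91.4 and 20.8 CPM with rAAV2retro and 13.5, 2.82 and 14.03 with DiI. Cck was 641, 619, 1296 and 1134 CPM against 925, 433 and 600. The groups overlapped for all 4 genes. Calca differed by 1.73 ± 1.79 (log2, SE), Adcyap1 by 1.80 ± 1.58, Cck by 0.50 ± 0.43 and Gal by -0.40 ± 1.80 as rAAV2retro minus DiI. None of the 4 passed edgeR's quasi-likelihood test at an adjusted p of 0.05 over 16527 genes, with adjusted p = 0.996 for Cck, 0.998 for Adcyap1 and 1 for Calca and for Gal. DESeq2 called 0 of the 4, beside 473 of all genes. An unadjusted p under 0.05 was found for 0 of the 4, beside 1073 of all 16527 genes. Across all genes edgeR called 0.00605%, a single gene (Crebzf, named after its value was seen). The SEs came from the fit of all 24 groups, which shared 1 estimate of each gene's spread. They therefore do not measure the spread within CM alone. With SEs as large as these, differences of the sizes fitted for Calca and Adcyap1 were not detectable in this fit. In the male libraries alone, Cck differed by -0.05, against the direction in all libraries, Calca by 1.75 and Adcyap1 by 0.51. Without replicate 3 of the rAAV2retro group Adcyap1 differed by 0.71.

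**Figure D3:**
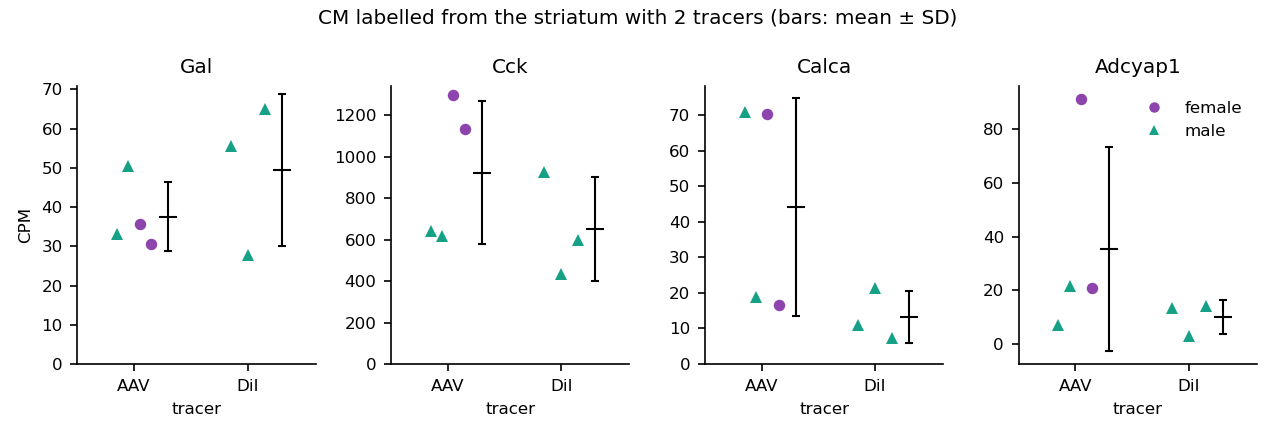
Level in CPM of the 4 genes in CM libraries labelled from the striatum with rAAV2retro (AAV, 4 libraries) or DiI (3 libraries); circles are females, triangles males, and bars give the mean ± SD. The 2 tracers overlap for every gene, and the highest Adcyap1 value, 91.4, is a female library.

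Sex was compared within the 8 groups that held both, with 23 female and 21 male libraries and a term for each group. In RE, VA, VM and VPMpc, amplification date partly followed sex. In VL it followed sex fully, so sex and date cannot be told apart in that group. Cck was lower in females in 6 of the 8 groups. In VM the females had 423, 189 and 374 CPM (329 ± 123, n = 3) and the males 734, 699 and 858 (764 ± 83.6, n = 3), with no overlap. In RE the females ran from 350 to 817 CPM (548 ± 204, n = 5) and the males from 828.8 to 1094 (919 ± 151, n = 3). CM went the other way, with females at 1296 and 1134 CPM and males at 641 and 619. Over all 8 groups Cck differed by -0.44 ± 0.18 (log2, SE, female minus male; edgeR adjusted p = 0.99987 over 15490 genes), which did not pass the test. In RE the 2 amplification dates alone gave 481 ± 159 (n = 4) and 894 ± 134 CPM (n = 4). Within groups of the same date (26 libraries in 7 groups that held both sexes) the Cck difference was -0.30.

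The other 3 genes did not pass the test between the sexes either. Adcyap1 differed by 0.92 ± 0.69 (female minus male), with females above males in mean in 5 of 8 groups. In RE the females had a median of 45.8 CPM and the males of 21.2, and their ranges overlapped. Calca differed by -0.68 ± 0.76, and Gal by 0.04 ± 1.38. The adjusted p of each was 0.99987 (edgeR), DESeq2 called 0 of the 4, and Cck was the only gene of the 4 with an unadjusted p under 0.05. Of all 15490 genes, 672 had an unadjusted p under 0.05 and DESeq2 called 12. The share of all genes called by edgeR was 0.0323%, which was 5 genes (Xist, higher in females, and the Y-linked Kdm5d, Eif2s3y, Uty and Ddx3y, lower), named after their values were seen. Within dates Gal differed by -0.916, against its direction in the pooled fit.

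**Figure D4:**
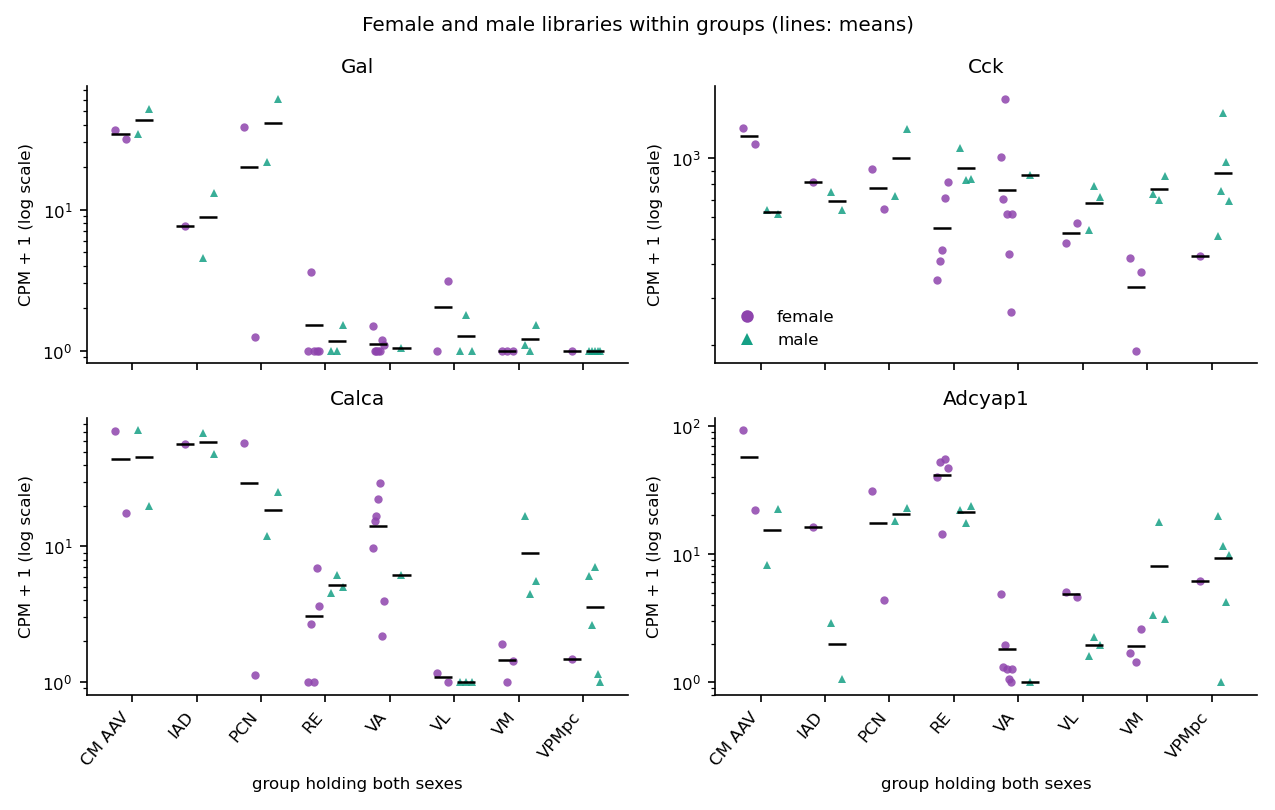
Level of the 4 genes in female (circles) and male (triangles) libraries of the 8 groups that held both sexes, on log axes of CPM + 1, with lines at the means. For Cck the females lie below the males in VM and above them in CM, and for Adcyap1 in RE the females run from 13.4 to 54.3 CPM and the males from 16.4 to 22.6.

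The receptor list held 14 genes, of which 5 were measured: Galr1, a galanin receptor; Ramp3, an accessory subunit that turns calcitonin-family receptors toward adrenomedullin or amylin; Crcp, a component of the CGRP receptor complex; Adcyap1r1, the PAC1 receptor; and Vipr2, the VPAC2 receptor for VIP and PACAP. The cholecystokinin receptors and the core CGRP receptor Calcrl were not analysed here. Galr1 had reads in 44 of 120 libraries. All 7 striatum-labelled nuclei, CM and SPA among them, averaged at least 10 CPM of Galr1. Its mean was 73.7 ± 36.4 CPM in PVT (n = 3), 50.2 ± 22.9 in IMD (n = 4), 43.7 ± 28.5 in CL (n = 4), 18.05 ± 6.46 in PF (n = 4), 16.2 ± 7.90 in SPA (n = 4) and 10.9 ± 14.9 in PCN (n = 4). Over the 12 libraries of CL, PCN and CM labelled with rAAV2retro it was 27.1 ± 23.5 CPM. Among cortex-labelled groups it was 6.73 ± 5.22 in AM labelled with DiI (n = 4), 4.503 ± 6.76 in RE (n = 8) and 1.97 ± 1.79 in IAD (n = 3), and apart from 1 VA library at 0.131 CPM it was at 0 in every library of the others. So receptor and peptide were both high in PVT and CL, and CM also held both. IMD had much receptor and little peptide, and AV, with up to 18.5 CPM of Gal, had no receptor read. The AM library labelled with rAAV2retro had 26.2 CPM of Gal and no Galr1 read.

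**Figure D5:**
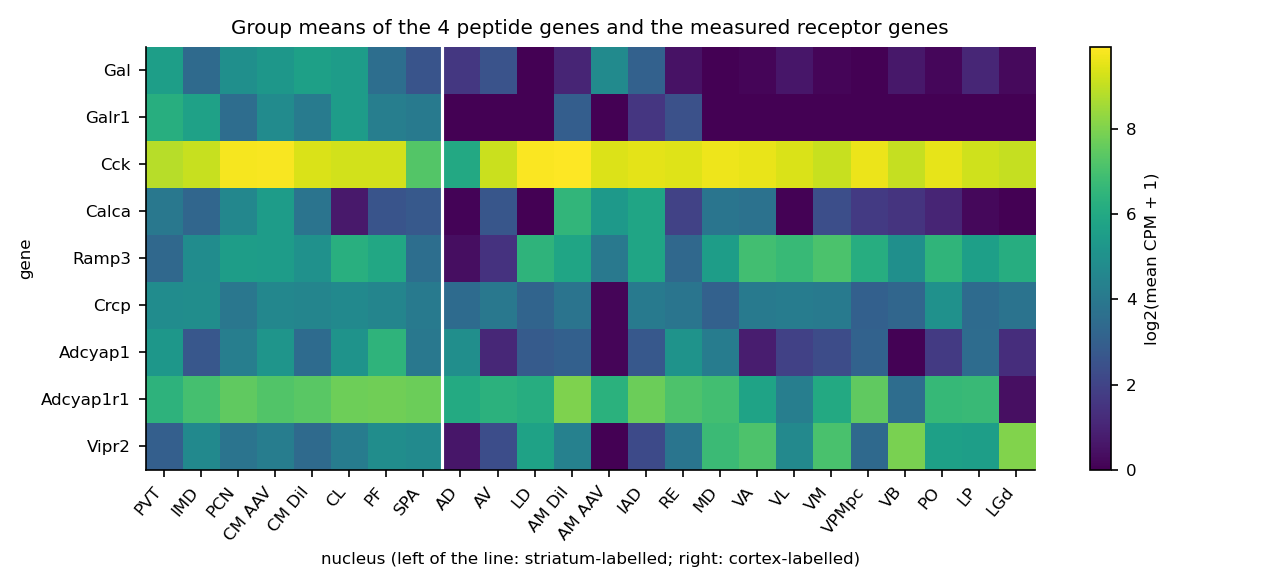
Group means of the 4 peptide genes and the 5 measured receptor genes as log2(mean CPM + 1), with striatum-labelled groups left of the white line and cortex-labelled groups right of it. Gal and Galr1 are both bright on the left, Vipr2 is brightest in LGd and VB on the right, and Adcyap1r1 is darkest in LGd.

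Striatum-labelled and cortex-labelled nuclei were compared with reads summed per nucleus, 7 against 15, a contrast in which 18.4% of all genes were called. The tracer was rAAV2retro in all 7 and DiI in all 15, so target and tracer cannot be told apart in it. Galr1 was 35.7 ± 23.5 CPM against 0.955 ± 2.16, with no overlap (log2 difference 5.22 ± 1.33 SE, edgeR adjusted p = 0.00815). This gene had been reported from these libraries before and is no independent evidence. Crcp was 23.2 ± 5.80 CPM against 13.8 ± 5.85 (0.75 ± 0.24, adjusted p = 0.0296), with overlap. Galr1 passed in all 27 settings run, and Crcp failed in 4 of them, among them the dates that held both classes (adjusted p = 0.292). Adcyap1r1 (0.86 ± 0.54, adjusted p = 0.275), Ramp3 (-0.62 ± 0.64, adjusted p = 0.53) and Vipr2 (-1.85 ± 0.80, adjusted p = 0.104) did not pass in edgeR, and DESeq2 called Vipr2 as well, among 3755 of all 15440 genes. The median log2 difference of the 5 was 0.75, beside -0.08 for all genes.

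The PACAP receptors showed their own map. Adcyap1r1 was 254 ± 58.7 CPM in AM (n = 4), 220 ± 16.5 in PF (n = 4), 214 ± 29.2 in CL (n = 4), 10.6 ± 1.83 in VB (n = 4) and 0.334 ± 0.480 in LGd (n = 5). Vipr2 was at its highest in LGd (264 ± 46.7 CPM, n = 5) and VB (241 ± 46.0, n = 4). LGd and VB, the principal visual and somatosensory relays, were thus lowest in Adcyap1r1 and highest in Vipr2, with little Adcyap1 of their own. PF was high for both the peptide and Adcyap1r1, and AM was high for Adcyap1r1 with hardly any Adcyap1 in 3 of 4 libraries.

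Ramp3 was the receptor gene that moved between related nuclei. Between RE and AM, where 1.84% of all genes were called, Ramp3 was 9.11 ± 7.03 CPM (n = 8) against 55.6 ± 30.1 in AM labelled with DiI (n = 4), with no overlap (-2.61 ± 0.56, edgeR adjusted p = 0.00158), and it was called in all 19 settings run. It was the only one of the 5 receptor genes called there, and the median of the list was -0.58 beside 0.05 for all genes. The AM library labelled with rAAV2retro, outside this contrast, had 15.1 CPM of Ramp3, within the range of RE (0.749 to 21.2). Calca and Ramp3 were thus both lower in RE than in AM labelled with DiI. Between PVT and the mean of CL, PCN and CM, where 2.18% of all genes were called, Ramp3 was 9.34 ± 1.93 CPM (n = 3) against 54.6 ± 23.9 (12 libraries; -2.5 ± 0.74, edgeR adjusted p = 0.0472). That call was lost in 15 of 20 settings, with adjusted p up to 0.221, including on leaving out any 1 of the 3 PVT libraries, and with the replicate number as a block (edgeR adjusted p = 0.0634). All PVT libraries were amplified on one date and all CL, PCN and CM libraries on another, so nucleus and date cannot be told apart in this contrast. The 12 libraries were not independent either, since PCN and CM came from the same 4 animals, and 3 of the 4 CL libraries from the animals that gave PVT. Between SPA and PF, where 0.309% of all genes were called, Ramp3 was 10.9 ± 6.005 against 61.6 ± 13.6 CPM (n = 4 each) and did not pass (-2.49 ± 0.71, edgeR adjusted p = 0.124), with 0 of 5 receptors called by edgeR, 1 at an unadjusted p under 0.05 and 1 by DESeq2 (Ramp3 in each). Among all 16527 genes 1078 had an unadjusted p under 0.05 there, and DESeq2 called 251. Each of SPA and PF was amplified on a single date, and the dates differed, so nucleus and date cannot be told apart here either. Over all groups Ramp3 was highest in VM (139 ± 10.9 CPM, n = 6) and lowest in AD (0.281 ± 0.265, n = 4), and Calca was low in both. No receptor gene was called for tracer in CM or for sex, by edgeR or DESeq2, and 0 of the 5 had an unadjusted p under 0.05 in either.

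The machinery that cuts, trims, amidates and packs peptides was measured for 17 of 19 listed genes, and 15 of the 17 had reads in all 120 libraries. Between PVT and the intralaminar nuclei CL, PCN and CM, 2 of 17 were higher and 0 lower in PVT by edgeR (2.18% of all genes were called). An unadjusted p under 0.05 was reached by 5 of 17, beside 2281 of all 16527 genes. DESeq2 called 3 of 17, beside 1149 of all genes. The further one was Vgf, a granin-like precursor, at 7.51 ± 9.21 CPM in PVT (n = 3) against 37.8 ± 20.96 (12 libraries; -2.28 ± 0.73, edgeR adjusted p = 0.0752). Cpe, the carboxypeptidase that trims basic residues after cutting, was 1138 ± 72.3 CPM in PVT (n = 3) against 501 ± 105 (12 libraries; 1.18 ± 0.24, edgeR adjusted p = 9.17e-04). Chgb, a granin of the dense-core vesicle, was 1038 ± 173 against 449 ± 106 CPM (1.21 ± 0.22, edgeR adjusted p = 1.88e-04). Both were called in all 20 settings run, and neither overlapped between the groups. As for Ramp3, nucleus and date cannot be told apart in this contrast in any setting, and the 12 libraries were not independent. The list median was 0.25 beside -0.04 for all genes.

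Between striatum-labelled and cortex-labelled nuclei 3 of 17 processing genes were called, 1 higher and 2 lower, a share of 17.6% that lies near the 18.4% of all genes. Pcsk1n, which codes for the convertase inhibitor proSAAS, was higher (96.9 ± 13.5 against 54.4 ± 28.7 CPM, edgeR adjusted p = 0.0301). Pam, the amidating enzyme that acts on the glycine shown in capitals above, was lower (64.3 ± 20.8 against 112 ± 48.7 CPM, edgeR adjusted p = 0.0292). Cadps, which primes dense-core vesicles for release, was lower too (543 ± 62.1 against 875 ± 241 CPM, edgeR adjusted p = 0.00374). None of the 3 passed within the dates that held both classes. Between RE and AM, and between SPA and PF, 0 of 17 were called by edgeR, with 2 at an unadjusted p under 0.05 in each and 1 (Cadps, RE against AM) and 0 by DESeq2. Of all 16527 genes, 1597 and 1078 had an unadjusted p under 0.05 in these contrasts, and DESeq2 called 542 and 251. With the animal as a block in RE against AM, edgeR called 1 of 17, beside 282 of all 16527 genes (330 of 13810 with RE and AM alone). For tracer in CM 1 gene (Chgb) and for sex 2 (Pcsk1n and Pcsk2) had an unadjusted p under 0.05, and 0 were called by edgeR or DESeq2. An unadjusted p under 0.05 was reached by 1073 of all 16527 genes for tracer and 672 of 15490 for sex.

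Of 48 other neuropeptide genes listed, 13 were measured, and 7 averaged at least 10 CPM in a group. In 6 of them this held for a nucleus: Pnoc, the nociceptin precursor (23.9 ± 26.7 CPM in LD, n = 5), Nucb2, the nesfatin precursor (23.7 ± 11.0 in IMD, n = 4), Pdyn, the dynorphin precursor (21.7 ± 53.0 in VPMpc, n = 6), Adm, adrenomedullin (15.7 ± 10.1 in VL, n = 6), Nppc, C-type natriuretic peptide (12.8 ± 7.49 in CL, n = 4), and Pomc, the opiomelanocortin precursor (10.1 ± 9.14 in PVT, n = 3). The seventh was Sst, the somatostatin precursor, at 11.5 ± 1.39 CPM in CM labelled with DiI (n = 3) and 0 in all 4 CM libraries labelled with rAAV2retro. For Pnoc and Pdyn the SD exceeded the mean. Between the 2 classes of nuclei 10 were tested: Pthlh, parathyroid hormone-like hormone, was higher (3.95 ± 3.30 against 0.329 ± 0.554 CPM, edgeR adjusted p = 0.0281) and Pnoc lower in the striatum-labelled ones (0.307 ± 0.374 against 5.07 ± 6.92 CPM, edgeR adjusted p = 0.0458), a share of 20% near the 18.4% of all genes, and DESeq2 called 4, beside 3755 of all 15440 genes. The Pnoc call was lost in 14 and the Pthlh call in 4 of 27 settings, among them the dates that held both classes (edgeR adjusted p = 0.316 and 0.318) and without PVT (0.0898 and 0.05135). In the other 5 contrasts edgeR called 0 of 13. Unadjusted p under 0.05 was reached by 2 for SPA against PF, 1 for PVT, 4 for RE against AM, 3 for tracer and 1 for sex, and DESeq2 called 1, 0, 1, 2 and 0. Among all genes it was reached by 1078, 2281, 1597 and 1073 of 16527 and, for sex, 672 of 15490. DESeq2 called 251, 1149, 542, 473 and 12 of all genes.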

How the data were processed

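Neurons labelled from a projection target were collected by hand from protease-treated slices, and RNA was extracted, amplified with the Ovation kit and sequenced, per the labels' protocols. Reads were trimmed with cutadapt 1.16, aligned with STAR 2.5.3a to mm10 and counted per gene with featureCounts 1.52, per the submitters' processing notes. The authors deposited whole-number counts of 16538 genes in 120 libraries, with no normalization, together with a table of sex, age, cells and amplification date per library. Whether counting used strand is not given in the sources used here.

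CPM were computed with TMM library sizes (library totals 8159497 to 26444831). Contrasts were fitted with edgeR 4.0.16 in R 4.3.3 (quasi-likelihood, limma 3.58.1) on the counts of 16527 genes kept by filterByExpr (minimum count 10, minimum total 15), with all 120 libraries and 24 group coefficients. Sex was fitted in the 44 libraries of 8 groups, with the library of mixed sex left out, and the classes of nuclei on counts summed per nucleus. A gene was called at a Benjamini-Hochberg adjusted p under 0.05 over all genes tested. Alternatives were RLE size factors, no filter, DESeq2 1.42.0, the compared groups alone, a replicate block, and each library, group or nucleus left out; refits without 1 library kept the dispersion trend of the full fit. The fits were tested on simulated data. The members, lists and tests were chosen with earlier results of these data known. Genes named were the 4 members, the receptors, up to 4 called genes per direction of each other list, other peptides of at least 10 CPM in a group, and the 5 genes nearest each member. RE and AM replicates 1 to 4 came from the same animals, per the deposited table; their deviations from the group means correlated at -0.03, -0.04, 0.05 and -0.07. CM and PCN replicates 1 to 4 also shared animals by number, as did SPA and PF replicate 3, whereas the numbers of PVT do not match the CL libraries of its animals. Each group had at least as many recorded animals as libraries. Some items are not reported here. Figures used Python 3.11.15, pandas 2.3.3 and matplotlib 3.10.9.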

Additional observations from a re-analysis of the deposited data

Results flagged for a closer look

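In 18 of the 75 gene and group pairs with 4 to 10 libraries, 1 library lay far from the rest. Its gap to the nearest other library took up most of the group's range. The rule flags about 1 in 20 groups of normally distributed values. A group with reads in only 1 library is always flagged, so 18 of 75 cannot be read against that rate. In the flagged groups the other libraries were at or near 0 for most pairs, and the values are CPM.

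For Adcyap1 the libraries were AM replicate 3 at 28.7 (others up to 0.613), PO replicate 6 at 10.1 (up to 3.35), VA replicate 1 at 3.86 (up to 0.965), VM replicate 5 at 16.7 (up to 2.33) and VB replicate 4 at 0.133, which was 2 reads. The AM and VM libraries held 437 and 304 Adcyap1 reads, against at most 13 and 47 in the others of their groups.

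For Calca they were VM replicate 4 at 15.8 (others up to 4.60), VB replicate 1 at 7.12 (90 reads, none in the others), PO replicate 6 at 4.51 (up to 1.88), CL replicate 4 at 2.05 (up to 0.273), LP replicate 3 at 1.22 (up to 0.2505) and VL replicate 1 at 0.177, which was 3 reads. PO replicate 6 stood apart for both Calca and Adcyap1, and its oligodendrocyte sum was 215 CPM, against at most 84.8 in the other PO libraries; the part of those cells in its values was not tested.

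For Gal they were AV replicate 4 at 18.5 (others up to 6.85), RE replicate 2 at 2.62 (up to 0.518), VB replicate 4 at 2.20 (33 reads, none in the others), PO replicate 2 at 0.974, LGd replicate 1 at 0.937, VM replicate 6 at 0.529 and VA replicate 1 at 0.4995. The VB library held 14 cells, the fewest of the series, against 42 to 61 in the other VB libraries, and an oligodendrocyte sum of 1766 CPM against at most 626; the part of these in its Gal reads was not tested. No Cck value stood apart in this way.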

How the results depend on the processing

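Of the member differences, 2 changed sign: Cck between tracers was -0.0503 in male libraries alone, and Gal between sexes was -0.916 within amplification dates (both added after the data were seen) and -0.417 to 0.62 with 1 group left out (-0.417 without RE, -0.044 without VA, -0.409 without VL). Counts of all genes called moved with the fit. DESeq2 called 251 for SPA against PF, 1149 for PVT, 542 for RE against AM, 473 for tracer and 12 for sex, and the compared groups alone gave 1084, 1031, 614 and 12 in the first 4. With 1 library left out these ranged over 24 to 48, 158 to 337, 187 to 289 and 0 to 2. Male libraries alone gave 0 for tracer, and the dates that held both classes 874 for striatum against cortex. The cause was not tested.

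Receptor calls were 1 by DESeq2 and 1 with the groups alone for SPA against PF, 0 with RLE size factors and 2 with the groups alone for PVT (0 to 1 with 1 library left out), 2 with the groups alone for RE against AM, and 1 to 2 with 1 nucleus left out of the classes. Processing calls were 2 for SPA against PF with the groups alone. For RE against AM they were 1 with no filter, by DESeq2, with the groups alone and on 1 date, and 0 to 1 with 1 library left out. In the classes they were 1 on shared dates and 1 to 4 with 1 nucleus left out. Other-peptide calls were 1 by DESeq2 for SPA against PF and for RE against AM, and in the classes 4 with no filter and by DESeq2, 1 on shared dates and 0 to 4 with 1 nucleus left out. Among all genes the classes gave 2873 of 16538 with no filter, 3755 of 15440 by DESeq2 and 874 of 14677 on shared dates. With 1 nucleus left out they gave 1998 of 15580 (without IMD) to 3126 of 15552 (without SPA). PVT gave 368 of 16527 with RLE size factors, and RE against AM 306 of 16538 with no filter and 227 of 16527 on 1 date.

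With the replicate block, 282 genes were called for RE against AM, where the numbers pair animals (330 with RE and AM alone), and processing calls were 1 in both fits. Receptor calls for PVT were 0, beside 288 of all 16527 genes, where the numbers pair CM with PCN but not PVT with CL. The block changed no other call.

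Of 192 level means under other scaling 10 were counted as moved. This meant a move of more than 1 SD, or any move for the AM group of 1 library, which has no SD. Leaving out 1 library moved 24 means of at least 1 CPM by over 1.5 times. Low read counts limit Gal, Calca and Adcyap1 in the groups near 0.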
